A study of Mus musculus with 6 samples.

Results

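The transcriptional response of Smad4-deficient mouse intestinal organoids to added TGF-β was measured by bulk RNA sequencing. The 4 libraries compared were chosen by their labels out of 6 in the series. They are 2 of Smad4 KO organoids left untreated and 2 of Smad4 KO organoids given 0.5 nM TGF-β (Smad4 KO+TGFb). Both groups are labelled Smad4-deficient, so the comparison shows what TGF-β changed in organoids of this genotype. The other 2 libraries, of wild-type (WT) organoids without TGF-β, entered the model that estimates the spread, and their levels are given where they help to place a value. Intestinal organoids are small cultures of gut epithelium with crypt-like and villus-like regions, and these were grown in a medium with EGF, the BMP inhibitor Noggin and the Wnt agonist R-spondin1. The time in every title is 48 h, while the wording of the protocol leaves it unclear whether a further period with TGF-β came after that. The labels do not say how Smad4 was inactivated, whether the organoids came from 1 line or several, which part of the intestine they came from, or whether replicates were separate cultures. The p-values therefore measure the spread between these libraries, which may be technical. Treated WT organoids were not analysed here, so whether any of these responses needs the loss of Smad4 was not tested.

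TGF-β is a secreted ligand that brings type I and type II receptor kinases together. The receptors phosphorylate receptor SMADs, which bind the common partner Smad4 and enter the nucleus to switch target genes on and off. Cells also answer TGF-β by routes that use no SMAD, among them MAP kinases and other kinase cascades. In gut epithelium TGF-β is known for restraining growth and for taking part in repair after injury. YAP and TAZ are coactivators that the Hippo kinases keep out of the nucleus. When released they bind TEAD factors at DNA and raise genes of adhesion, matrix and regeneration, and the series' title names Yap beside TGF-β and Smad4.

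Smad4 itself (ENSMUSG00000024515, GRCm38 chromosome 18, 73639009 to 73703780 on the minus strand) stood at 21.7 and 23.1 CPM in the untreated and 25.2 and 29.5 CPM in the treated Smad4 KO libraries, against 99.4 and 109 CPM in WT. CPM are the deposited estimated counts per 1e6 of them, scaled by TMM. The small difference with TGF-β did not pass the test (log2 fold change 0.29 ± 0.10 SE, adjusted p = 0.115). Smad4 was thus lower than in WT in all 4 libraries, the direction their genotype label gives, but was not absent. A whole-gene count cannot show which part of the gene is missing. It also cannot tell a residual transcript from cells that kept the gene, and this was not tested. Libraries held 40.5 to 50.7 M units of estimated count, or about 10.1 to 12.7 M fragments. Replicates correlated at 0.992 and 0.993 across genes (log2 of CPM + 1), and untreated with treated libraries at 0.980 to 0.981. Mitochondrially encoded genes took 3.87 and 3.92% of the units with TGF-β and 4.57 to 4.70% in the other 4 libraries. The defining epithelial markers were abundant in all 4 Smad4 KO libraries, with summed levels of 13383 and 13609 CPM untreated and 18122 and 18244 CPM treated.

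TGF-β changed many genes in Smad4 KO organoids, most of them by a modest amount. Of 15503 genes tested, 2521 (16.3%) passed at an adjusted p under 0.05 in edgeR's quasi-likelihood test with Benjamini-Hochberg adjustment. Of all genes tested, 1206 (7.78%) were higher and 1315 (8.48%) lower. The median log2 fold change was 0.65 among the former and -0.53 among the latter, and -0.01 over all genes tested. Counts of list members below are to be read beside the shares of 7.78% and 8.48%. The lists were chosen with earlier results of these data known, and some share members. Changes of more than 2-fold were less even, with 396 genes (2.55%) higher and 244 (1.57%) lower, and 161 and 52 genes changed more than 4-fold. Fewer genes passed when 1 library was left out. The number higher was 815 and 768 without Smad4 KO replicates 1 and 2 and 656 and 658 without Smad4 KO+TGFb replicates 1 and 2, and the number lower was 869, 862, 848 and 876 in the same order. Genes over 2-fold higher numbered 259 and 258 without the treated replicates.

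Genes with large fold changes were named from called genes with a mean of 5 CPM or more in 1 group, untreated and treated libraries that do not overlap, and a symbol not of clone type. Called genes outside these limits, among them 28 at 0 in both untreated libraries, reach larger fitted changes. The 12 highest fold changes within these limits belonged to genes at low levels in untreated organoids. Spp1, the secreted matrix protein osteopontin (chromosome 5, 104435118 to 104441050 on the plus strand), had 0.713 and 0.446 CPM in the untreated and 55.1 and 56.9 CPM in the treated libraries and 0 in both WT libraries (96.4-fold, log2 fold change 6.59 ± 0.22 SE, adjusted p = 6.76e-05). Fibronectin, Fn1 (chromosome 1, 71585520 to 71653200 on the minus strand), went from 0.305 and 0.595 to 41.1 and 37.9 CPM (log2 fold change 6.44 ± 0.43 SE, adjusted p = 0.000233). For Spp1, 18.8% of the exons overlap the gene model Gm42793 on the same strand. Cym, which encodes the gastric protease chymosin (chromosome 3, 107211293 to 107221732 on the minus strand), had 3.21 and 3.39 CPM in the untreated and 182 and 178 CPM in the treated libraries (54.5-fold, adjusted p = 1.28e-06). Anxa8, an annexin that binds membranes in the presence of calcium, had 4.05 and 3.94 CPM in the untreated and 153 and 147 CPM in the treated libraries (37.5-fold). The others of the 12 were Igfbp7, a secreted binder of insulin-like growth factors (log2 fold change 5.08 ± 0.64 SE), Laptm5 (4.46), the thrombin receptor F2r (4.33), the engulfment adaptor Gulp1 (4.29), Samd5 (4.23), the serine protease Prss22 (4.12), Basp1 (3.93) and the laminin chain Lama3 (16-fold). Of these, Samd5 reached 123 and 116 CPM and Lama3 85 and 83.9 CPM, whereas Laptm5 and F2r stayed near 7.28 and 6.17 CPM.

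The 12 lowest fold changes within the same limits were mostly smaller in size than the 12 highest. Zfp62, a zinc finger protein, had 34.8 and 31.6 CPM in the untreated and 3.91 and 6.04 CPM in the treated libraries (log2 fold change -2.74 ± 0.22 SE, adjusted p = 0.000514). The mucosal pentraxins Mptx1 and Mptx2, secreted lectin-like proteins of the small intestine, fell from 39.5 and 41 to 7.03 and 5.75 CPM (log2 fold change -2.66) and from 48.2 and 47.7 to 7.4 and 8.75 CPM (-2.57). Sfrp5, a secreted Wnt inhibitor of the crypt base, had 15.3 and 11.4 CPM untreated and 1.67 and 2.69 CPM treated, with 34.2 and 33.6 CPM in WT. Esrrg, an orphan nuclear receptor (log2 fold change -2.31), Rgcc (-2.28), the water channel Aqp4 (-2.14) and the steroid dehydrogenase Akr1c14 (-2.12) fell too, and in WT each was higher than in either Smad4 KO group. Cpt1b (-2.39) and Tymp (-2.12) also passed, but 81.4% of the Cpt1b exons overlap Gm44502 and 42.0% of the Tymp exons overlap Sco2, on the same strand. Gvin1, an interferon-inducible GTPase with near-identical copies, had the lowest value of the 12 (-5.27), from 37.9 and 27.9 to 1.06 and 0.638 CPM. Its WT libraries differed widely (30.7 and 2.78 CPM), and its call was lost when any 1 of the 4 Smad4 KO libraries was left out, treated or untreated (adjusted p = 0.0622 to 0.142). Enpp7, the alkaline sphingomyelinase of enterocytes (-2.76), was lost in the same way (adjusted p = 0.0519 to 0.0774).

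**Figure D1:**
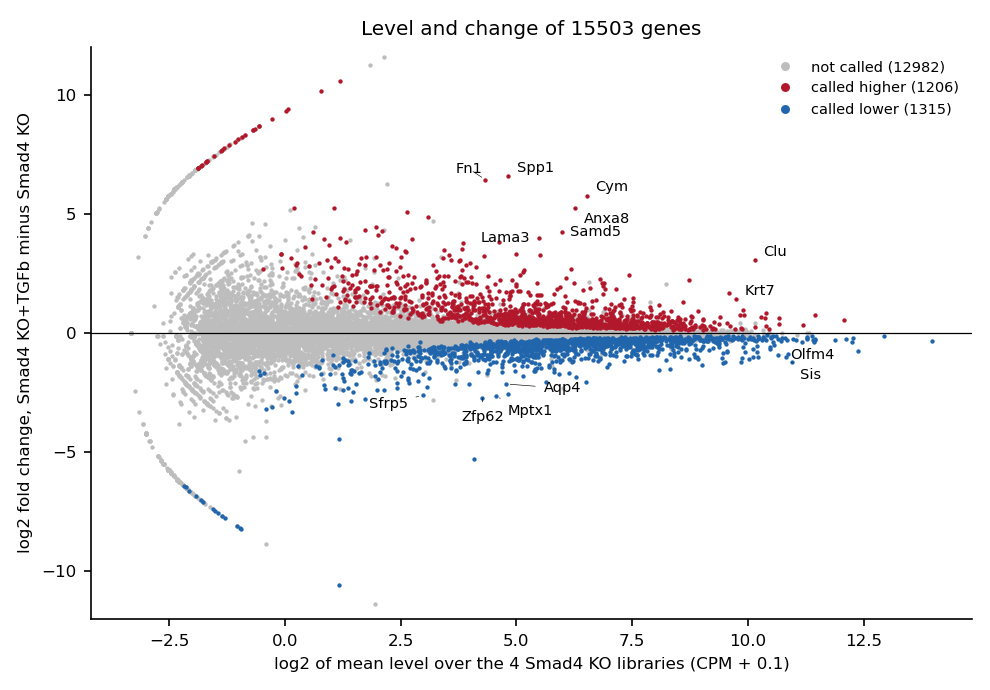
Each point is 1 of 15503 genes tested, with its level over the 4 Smad4 KO libraries on the horizontal axis (log2 of CPM + 0.1) and its log2 fold change with TGF-β on the vertical axis. The 1206 genes called higher (red) reach larger changes than the 1315 called lower (blue), and points on the 2 curved edges are genes at 0 CPM in 1 of the groups, whose fitted change depends on the prior count.

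Known targets of TGF-β and SMADs were among the genes that rose. Of 17 tested, 9 were called higher (52.9%, against 7.78% of all genes) and 0 lower (1 at an unadjusted p under 0.05 and 0 by DESeq2), with a median log2 fold change of 0.39 against -0.01 over all genes. Pmepa1, a membrane protein that sequesters receptor SMADs (chromosome 2, 173224458 to 173276533 on the minus strand), had 37.6 and 38.2 CPM in the untreated and 187 and 182 CPM in the treated libraries (4.86-fold, log2 fold change 2.28 ± 0.064 SE, adjusted p = 1.34e-05). WT organoids without TGF-β had 13.8 and 14.8 CPM of it. Rhob, a small GTPase of the actin cytoskeleton, went from 33.7 and 34.2 to 101 and 97.2 CPM (2.91-fold, adjusted p = 4.25e-05). Smad7, the inhibitory SMAD that brings ubiquitin ligases to the receptors, had 9.75 and 11.8 CPM untreated and 26.7 and 28.5 CPM treated (2.56-fold, adjusted p = 0.00244), and its partner ligase Smurf1 went from 51.1 and 59.4 to 90.3 and 101 CPM. The Notch ligand Jag1 rose 1.94-fold. Each of these 5 genes was separated between the groups. Among the other called members, the call of Ski was lost when any 1 of the 4 Smad4 KO libraries was left out. That of Zfp36l1 was lost without either treated replicate, and that of Tgif1 without Smad4 KO+TGFb replicate 2. The list was not uniform. Cdkn2b, the CDK inhibitor through which TGF-β classically stops the cell cycle, had means of 97.9 and 96.9 CPM (log2 fold change -0.02 ± 0.057 SE, adjusted p = 0.898), and the SMAD corepressor Skil had 54.9 and 67.8 CPM untreated and 81.9 and 78.5 CPM treated (adjusted p = 0.0607, and 0.0218 without Smad4 KO replicate 2).

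Of 24 ligands, receptors and SMADs tested, 4 were called higher (16.7%, against 7.78% of all genes) and 1 lower (4.17%, against 8.48%), with a median of 0.12. Tgfbr2, the type II receptor that binds TGF-β, rose from 146 and 145 to 212 and 216 CPM (log2 fold change 0.55 ± 0.042 SE, adjusted p = 0.000427), which is also above the 186 and 189.9 CPM of WT. Bmp7, a BMP ligand, fell from 24.6 and 25.9 to 14 and 13.7 CPM (adjusted p = 0.00118). The procollagen protease Bmp1, the type I receptor Acvr1 and the receptor SMAD Smad3 also passed (log2 fold changes 1.12, 0.82 and 0.36) but not in every setting. Bmp1 was lost without Smad4 KO+TGFb replicate 2 (adjusted p = 0.0652), Acvr1 without Smad4 KO replicate 1 or Smad4 KO+TGFb replicate 1 (0.0508 and 0.0678), and Smad3 without any 1 of the 4 Smad4 KO libraries (0.0588 to 0.103). The count higher was 2 without Smad4 KO replicate 1 and without either treated replicate. Tgfb1 had 6.95 and 6.29 CPM untreated and 9.74 and 12.3 CPM treated (adjusted p = 0.0528), and Inhba, the activin A subunit, was not seen in untreated libraries (0 units in both) and reached 0.555 and 1.23 CPM with TGF-β (adjusted p = 0.0875). Among 9 BMP targets tested, 3 were called higher and 0 lower (1 at an unadjusted p under 0.05 and 1 by DESeq2). Besides Smad7 these were Id1, an inhibitor of basic helix-loop-helix factors, at 9.7 and 8.99 CPM in the untreated and 26.3 and 25.5 CPM in the treated libraries (log2 fold change 1.47 ± 0.13 SE, adjusted p = 0.000721), and Id2, at 20.8 and 20.2 CPM untreated and 35.2 and 35.3 CPM treated (adjusted p = 0.00333). Id3 and Smad6, with means of 2.19 and 1.59 CPM untreated, did not pass.

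Of 19 known YAP/TAZ targets tested, 10 were called higher (52.6%, against 7.78% of all genes) and 0 lower (also 0 at an unadjusted p under 0.05 and 0 by DESeq2), with a median log2 fold change of 0.91. Myof, a ferlin that reseals membranes, went from 49.4 and 55.2 to 191 and 185 CPM (log2 fold change 1.84 ± 0.072 SE, adjusted p = 3.59e-05). Ccn2, a matricellular growth factor, had 16.2 and 16.7 CPM in the untreated and 69.5 and 72.3 CPM in the treated libraries (4.3-fold, adjusted p = 0.00211), although 23.2% of its exons overlap Gm15270 on the opposite strand. Levels in WT lay below both Smad4 KO groups, at 11.6 and 11.6 CPM for Myof and 4.01 and 7.21 CPM for Ccn2. Amotl2, an angiomotin that binds YAP at junctions, was 2.34-fold higher and F3, the coagulation tissue factor, 1.88-fold higher (28.3 and 27.3 to 51.6 and 52.7 CPM). The exchange factor Arhgef17 rose 1.73-fold and the phosphatase Ptpn14 1.98-fold. Ankrd1, a cardiac and epithelial ankyrin repeat protein, had 0.305 and 0.496 CPM untreated and 4.07 and 3.17 CPM treated (adjusted p = 0.00995, or 0.0526 without Smad4 KO replicate 1 and 0.0759 without Smad4 KO+TGFb replicate 1). Ccn1 was near the threshold, at 24.6 and 29.2 CPM untreated and 35.7 and 39.4 CPM treated (log2 fold change 0.48 ± 0.13 SE, adjusted p = 0.0499), and did not pass when any 1 library was left out (adjusted p = 0.0602 to 0.213). The number of targets called was 6 without Smad4 KO+TGFb replicate 1.

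Of 26 components of the Hippo pathway itself, 12 were called higher (46.2%, against 7.78% of all genes) and 0 lower (against 8.48%). At an unadjusted p under 0.05, 1 was lower, and 1 by DESeq2. The median was 0.39, with 7 genes over 2-fold higher. Ajuba, a LIM protein that binds and restrains the LATS kinases, went from 39.7 and 36.3 to 137 and 132 CPM (log2 fold change 1.82 ± 0.076 SE, adjusted p = 4.7e-05). Wwc2, a scaffold of the WWC family that promotes LATS activity, had 24.4 and 24.5 CPM in the untreated and 63.8 and 60.7 CPM in the treated libraries (2.54-fold), and Wwc1 went from 224 and 217 to 301 and 305 CPM. The angiomotin Amotl1 rose 5.28-fold, from 6.41 and 6.79 to 33.5 and 36.2 CPM. Among the DNA-binding partners, Tead4 rose 4.26-fold (4.94 and 7.43 to 29.3 and 23.4 CPM) and Tead2 2.34-fold, while Tead1 (log2 fold change 0.79 ± 0.26 SE, adjusted p = 0.1, and 0.0197 and 0.0181 without WT replicates 1 and 2) and Tead3 (0.25 ± 0.16 SE, adjusted p = 0.376) did not pass. Wwtr1, which encodes TAZ, rose from 22.8 and 23 to 37.8 and 39.5 CPM (adjusted p = 0.00182). Yap1 was called higher too, but not with the replicate number as a block in edgeR (log2 fold change 0.20, adjusted p = 0.0725). Its call was also lost when any 1 of the 6 libraries was left out. Amot was lost without Smad4 KO+TGFb replicate 2, and Vgll3 without Smad4 KO replicate 2 or Smad4 KO+TGFb replicate 1. Among core kinases and their cofactors, log2 fold changes were -0.01 for Lats1, -0.06 for Stk4, 0.01 for Sav1, -0.01 for Mob1a and -0.01 for Nf2, none of them called. Lats2 was not called with all libraries, and had a log2 fold change of 0.86 without Smad4 KO+TGFb replicate 2. The kinase Map4k4, also on the list, was called higher.

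Promoters of 3 genes of these lists are shown because they carry the letters that TEAD factors are known to bind, GGAATG on either strand (CATTCC on the other). They were chosen after values and sequences were seen. Each is the 250 bases before the transcription start in the RefSeq table (GRCm38.p6), written 5′ to 3′ in the direction of transcription, with the letters searched in capitals. Ajuba (minus strand) is taken from chr14:54577662-54577911, Ccn1 (minus strand) from chr3:145649986-145650235 and Wwtr1 (minus strand) from chr3:57575911-57576160.
Ajuba: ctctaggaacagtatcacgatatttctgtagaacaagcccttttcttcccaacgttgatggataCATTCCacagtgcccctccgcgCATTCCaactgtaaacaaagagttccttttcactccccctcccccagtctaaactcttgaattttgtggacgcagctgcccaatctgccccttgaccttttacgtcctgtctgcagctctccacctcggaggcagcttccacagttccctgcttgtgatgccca
Ccn1: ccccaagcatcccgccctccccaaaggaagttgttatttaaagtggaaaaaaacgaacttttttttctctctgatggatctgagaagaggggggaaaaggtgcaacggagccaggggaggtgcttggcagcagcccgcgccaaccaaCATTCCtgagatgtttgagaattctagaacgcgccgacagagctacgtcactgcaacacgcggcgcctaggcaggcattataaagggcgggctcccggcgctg
Wwtr1: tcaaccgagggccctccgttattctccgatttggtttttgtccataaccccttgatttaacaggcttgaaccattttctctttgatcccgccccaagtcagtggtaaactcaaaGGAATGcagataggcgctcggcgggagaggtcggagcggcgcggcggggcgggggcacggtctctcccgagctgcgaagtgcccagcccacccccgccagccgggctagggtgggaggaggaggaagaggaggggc
The letters begin 186 and 164 bases before the start in Ajuba, 103 bases before it in Ccn1 and 136 bases before it in Wwtr1. Of 21 YAP/TAZ targets and Hippo components called higher, 17 had a promoter in the table and 9 of these held the letters on either strand. Over the whole table, 3414 of 27025 promoters (12.6%) held them in the same window. The share was 10.8% among genes tested that had a promoter in the table, 13% among those called higher, 11.4% among those called lower, and 13.7% and 13.8% among those over 2-fold higher and lower. The table matched 75.6% of the genes tested, so they are given as values only. Of the 22 tested members of these lists that were not called, the table matched only 15, of which 6 held the letters. A match describes the sequence and shows no binding.

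Most markers of fetal and regenerating epithelium rose. Of 23 tested, 18 rose and 1 fell (78.3% higher, against 7.78% of all genes), with a median log2 fold change of 1.41 and 13 genes over 2-fold. Clu, a secreted chaperone that marks revival stem cells after injury (chromosome 14, 65968483 to 65981547 on the plus strand), had 244 and 238 CPM in the untreated and 2004 and 2066 CPM in the treated libraries (8.44-fold, log2 fold change 3.08 ± 0.11 SE, adjusted p = 3.14e-05), with 24.7 and 32.1 CPM in WT. Msln, the surface protein mesothelin, went from 161 and 141 to 684 and 706 CPM (4.61-fold), against 16.7 and 20.5 CPM in WT. For both genes the order was WT, untreated Smad4 KO and treated Smad4 KO from lowest to highest, with no overlap between groups. The alarmin Il33 had 6.74 and 6.27 CPM untreated and 20.4 and 20.1 CPM treated. Ccnd2, a G1 cyclin, rose 1.26-fold but remained below WT (579 and 569 CPM in WT, 519 and 512 CPM treated). The exception was Ctsz, a lysosomal cathepsin, which fell 1.37-fold. Emp1, an epithelial membrane protein, had treated values of 481 and 479.9 CPM but untreated values of 53 and 181 CPM and WT values of 32.2 and 137 CPM, and did not pass (adjusted p = 0.135).

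Annexins bind membrane phospholipids, and S100 proteins are their frequent partners. Of 11 annexins tested, some of which are on the regenerative list too, 8 rose and 1 fell (median 0.97). Anxa1 went from 44.5 and 43.2 to 187 and 185 CPM (log2 fold change 2.09 ± 0.056 SE, adjusted p = 1.12e-05), Anxa3 from 82.9 and 91.2 to 233 and 236 CPM and Anxa2 from 634 and 657 to 1238 and 1283 CPM. Anxa5, Anxa6 and Anxa10 rose 2.15-fold, 2.66-fold and 1.95-fold. Anxa4 had means of 868 and 948 CPM and did not pass (adjusted p = 0.114, and 0.0387 and 0.0407 without WT replicates 1 and 2). Anxa11 fell (log2 fold change -0.39), a call lost without Smad4 KO replicate 1 (adjusted p = 0.0777) or Smad4 KO+TGFb replicate 1 (0.0933). Among 12 S100 genes, 6 were called higher and 0 lower (also 0 at an unadjusted p under 0.05 and 0 by DESeq2), with a median of 0.90. S100a6 had 375 and 357 CPM in the untreated and 979 and 1355 CPM in the treated libraries (3.19-fold). S100a14 rose from 25.1 and 25.9 to 97.3 and 97.1 CPM (adjusted p = 2.74e-05) and S100a11 from 158 and 176 to 365 and 382 CPM.

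Of 30 genes of the extracellular matrix and its proteases, 17 rose (56.7%) and 1 fell, with a median log2 fold change of 1.12. Laminins, which anchor epithelia to their basement membrane, were among them. Lama3 went from 6.39 and 4.19 to 85 and 83.9 CPM (16-fold) and Lamb3 from 117 and 115 to 189.8 and 195 CPM (1.66-fold). Lama5, the chain typical of adult basement membrane, rose 2.21-fold. The collagen IV chains Col4a1 and Col4a2, which lie head to head in the genome, rose 11.6-fold and 7.6-fold, to 27.9 and 24.3 CPM and 26 and 30.1 CPM. The urokinase receptor Plaur (2.34-fold), tissue plasminogen activator Plat (2.33-fold) and the protease inhibitor Timp3 (3.43-fold) rose, and 21.3% of the Timp3 exons overlap Syn3 on the opposite strand. Thbs1, the adhesive glycoprotein thrombospondin, went from 88.5 and 91 to 184 and 199 CPM. The exception was Hspg2, the heparan sulfate proteoglycan perlecan, which fell from 88.5 and 85.1 to 42.8 and 36.9 CPM (log2 fold change -1.12 ± 0.083 SE, adjusted p = 0.000369).

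On the cell side of that contact, 17 of 30 integrin and focal adhesion genes were called higher and 0 lower (also 0 at an unadjusted p under 0.05 and 0 by DESeq2), with a median of 0.39. Of those higher, 3 passed 2-fold, among them Itgb8, whose call was lost when any 1 of the 4 Smad4 KO libraries was left out. The calls of Itga3, Itgb1, Tln1 and Tln2 were lost in some or all of these settings. Itgb4, the hemidesmosome integrin chain that binds laminin, went from 209 and 207 to 325 and 331 CPM (log2 fold change 0.66 ± 0.040 SE, adjusted p = 0.000167), and the collagen-binding chain Itga2 from 144 and 143 to 266 and 256 CPM. Itgb6, whose dimer can release latent TGF-β, rose 1.91-fold. Also past 2-fold were Tns4, of the tensin family, and the caveolin Cav2 (4.96 and 3.89 to 30.7 and 29.5 CPM). Tns4 had 29.8 and 27.1 CPM in the untreated and 122 and 124 CPM in the treated libraries (4.31-fold). The filamin Flna, which crosslinks actin, rose 1.68-fold. Of 28 actin cytoskeleton genes, 14 rose and 3 fell (9 and 1 without Smad4 KO replicate 1, and 1 fell without Smad4 KO+TGFb replicate 1). Capg, an actin capping protein, rose from 56.5 and 55.8 to 137 and 146 CPM, Actb 1.3-fold and Myh9 1.2-fold, whereas the muscle actin Acta1 fell from 19.4 and 19.1 to 10.5 and 8.39 CPM (adjusted p = 0.00342). The transcription factor Srf had a log2 fold change of -0.09 ± 0.070 SE and did not pass (adjusted p = 0.475).

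Most keratins and many cell junction genes rose. Of 11 keratins tested, 8 rose and 1 fell, with a median of 0.76. The simple keratins Krt8, Krt18 and Krt19 went from 3458 and 3514 to 5194 and 5070.4 CPM, from 706 and 721 to 1199 and 1216 CPM and from 2031 and 2143 to 3374 and 3628 CPM. Krt7, a ductal keratin, rose 2.66-fold to 1251 and 1245 CPM (adjusted p = 6.41e-06) and Krt4, a keratin of stratified epithelium, 5.88-fold to 62.4 and 58.1 CPM. Krt20, a keratin of mature enterocytes, fell (log2 fold change -0.20), a call lost when any 1 of the 4 Smad4 KO libraries was left out (adjusted p = 0.0934 to 0.195). Krt14, a basal keratin, was at 0 without TGF-β and at 1.39 and 0.935 CPM with it, at least 7.70-fold above a floor of 3 fragments over the untreated group. Its call was lost in the same 4 settings (adjusted p = 0.0779 to 0.189).

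Among 35 junction genes 18 rose and 2 fell (median 0.40). Among desmosome genes Dsp went from 963 and 973 to 1696 and 1733 CPM (log2 fold change 0.83 ± 0.028 SE, adjusted p = 2.44e-05), and Pkp1 and Ppl rose 2.06-fold and 2.04-fold. E-cadherin, Cdh1, rose 1.24-fold to 1472 and 1490.0 CPM and its partner Ctnnb1, β-catenin, 1.55-fold (15.1% of the Ctnnb1 exons overlap Ulk4 on the opposite strand). The tight junction scaffold Tjp1 went from 227 and 221 to 355 and 334 CPM. Claudins were called in both directions. Cldn4, a barrier-tightening claudin, rose from 232 and 211 to 417 and 429.5 CPM, while Cldn15, which forms a sodium pore in the small intestine, fell from 418 and 403 to 253 and 253 CPM (adjusted p = 9.76e-05) and Cldn3 fell 1.31-fold. Of 12 listed genes of mesenchymal transition, 5 could be tested and only Fn1 passed. Vim, the mesenchymal filament protein, had 5.6 and 6.57 CPM untreated and 3.24 and 5.65 CPM treated (log2 fold change -0.45 ± 0.27 SE, adjusted p = 0.334).

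**Figure D2:**
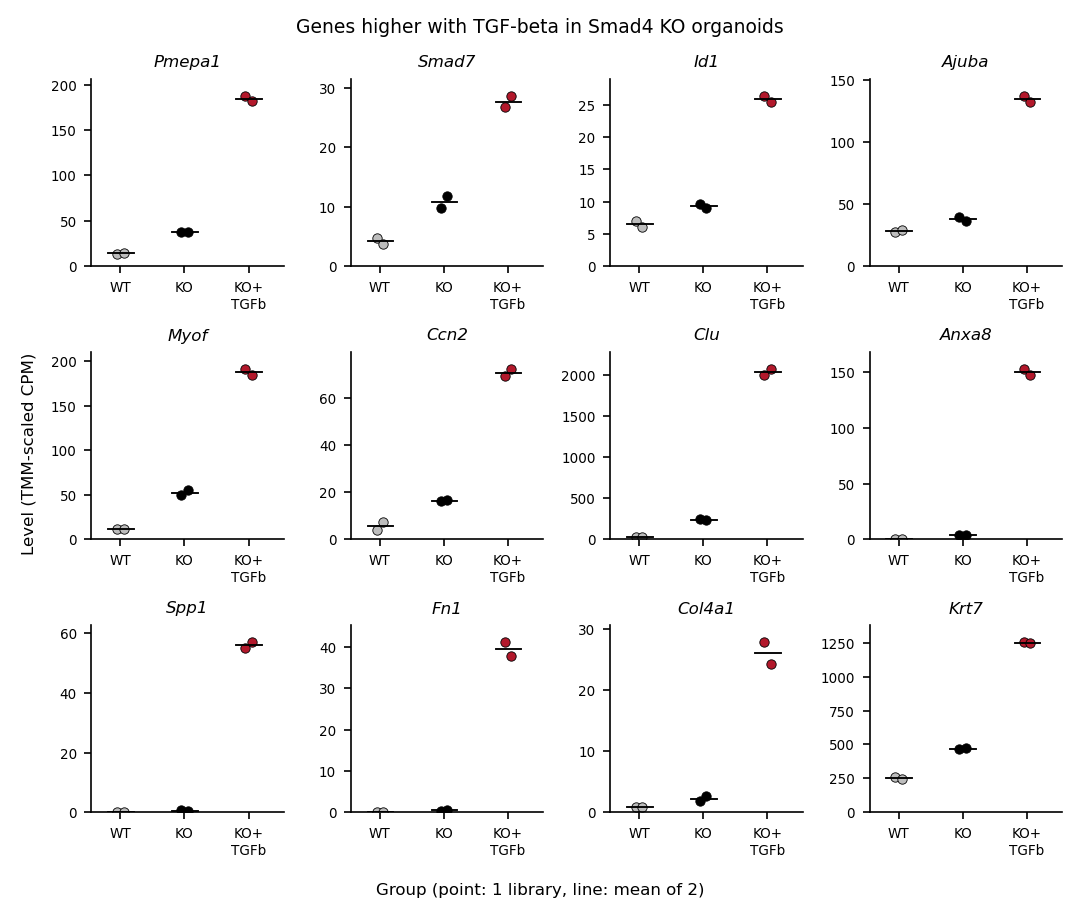
TMM-scaled CPM in each library (points) and group means (lines) of 12 genes that rose, on linear axes from 0, for WT, Smad4 KO and Smad4 KO+TGFb. Both treated libraries lie above both untreated Smad4 KO libraries in every panel, for example 2004 and 2066 CPM against 244 and 238 CPM for Clu.

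Immediate early and signalling genes rose in part. Of 23 AP-1 and immediate early genes, 10 rose and 1 fell, with a median of 0.41. Ier3 went from 7.33 and 6.59 to 19.1 and 21.2 CPM (log2 fold change 1.53 ± 0.13 SE, adjusted p = 0.000646), the ERK phosphatase Dusp6 from 29 and 28.6 to 57.4 and 59.2 CPM, Fos from 22.3 and 20.6 to 40 and 42.4 CPM and Junb from 63.3 and 58.1 to 109.9 and 112 CPM. The heat shock gene Hspa1b, which has the near-identical neighbour Hspa1a, rose 2.5-fold. Jun (log2 fold change 0.12 ± 0.044 SE) and Egr1 (0.26 ± 0.10 SE) did not pass (adjusted p = 0.14 and 0.157), and Jund fell 1.21-fold, with 52.6% of its exons overlapping Gm11175 on the opposite strand. Of 29 cytokine, chemokine and NF-κB genes, 9 rose and 2 fell, with 4 higher without Smad4 KO replicate 1 or either treated replicate. The NF-κB inhibitors Tnfaip3 and Nfkbia went from 28.9 and 26.9 to 56.9 and 56.3 CPM and from 65.7 and 64.3 to 111 and 99.2 CPM. The chemokine Cxcl16 rose 2.05-fold (18.3% of its exons overlap Zmynd15 on the opposite strand), and Ccl25 and Ccl28, chemokines that draw lymphocytes to the gut, fell 1.6-fold and 1.57-fold. Of 16 genes of the EGF family and its receptors, 7 rose and 2 fell. The receptor Egfr went from 65.6 and 65.1 to 103 and 92.8 CPM and the ligand Areg from 44 and 37.4 to 63.6 and 71.3 CPM, while Lrig3 fell from 57.8 and 53.5 to 28.4 and 28.4 CPM. Only 4, 2, 2 and 2 EGF family genes were higher without Smad4 KO replicates 1 and 2 and Smad4 KO+TGFb replicates 1 and 2, and 1 was lower without Smad4 KO+TGFb replicate 1.

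Most brush border genes of enterocytes fell. Of 19 brush border hydrolases tested, 16 were lower (84.2%, against 8.48% of all genes) and 0 higher (also 0 at an unadjusted p under 0.05 and 0 by DESeq2), with a median log2 fold change of -0.92. Sis, sucrase-isomaltase, which splits dietary disaccharides (chromosome 3, 72888557 to 72967863 on the minus strand), went from 2774 and 2759 to 1182 and 1185 CPM (2.34-fold lower, log2 fold change -1.22 ± 0.016 SE, adjusted p = 1.28e-06). WT organoids had 1212 and 1218 CPM. Lactase, Lct, had 192 and 185 CPM in the untreated and 94.4 and 98.8 CPM in the treated libraries and 28.8 and 31 CPM in WT, so its treated level was still higher than in WT. For the aminopeptidase Anpep and the dipeptidyl peptidase Dpp4 the treated levels were below WT, with Anpep at 75.1 and 73.5 CPM against 220.0 and 231 CPM and Dpp4 at 13.7 and 13.9 CPM against 86.3 and 80.8 CPM. The glutamyltransferase Ggt1 fell 2.29-fold and trehalase, Treh, 2.34-fold. Alpi, intestinal alkaline phosphatase, did not pass, with 1334 and 1305 CPM untreated and 1266 and 1299 CPM treated (log2 fold change -0.04 ± 0.024 SE, adjusted p = 0.329). In bulk RNA fewer cells of a type and less RNA per cell cannot be told apart, for these and all other cell type genes below.

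Of 21 genes that handle absorbed lipid, 15 were lower (71.4%) and 2 higher, with a median of -0.57. Fabp1, a fatty acid carrier of the cytosol, went from 1236 and 1312 to 621 and 608 CPM (2.07-fold lower, adjusted p = 2.28e-05), and Fabp2 fell 1.9-fold. Mttp, which loads lipid onto lipoproteins, had 1468 and 1503 CPM in the untreated and 855 and 882 CPM in the treated libraries. Apoa4 fell 1.6-fold, with 69.8% of its exons overlapping Gm47528 on the opposite strand. Rbp2, the retinol carrier, fell 1.56-fold and stayed above WT (465 and 486 CPM against 104 and 97.9 CPM). The 2 that rose, Dgat2 (log2 fold change 0.28) and Scarb1 (0.31), were not called when any 1 of the 4 Smad4 KO libraries was left out (adjusted p = 0.0681 to 0.109 and 0.0912 to 0.143), and Scarb1 also not without WT replicate 1 or 2 (0.0567 to 0.0572).

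Transporters showed the same direction, with 20 of 35 lower (57.1%, against 8.48% of all genes) and a median of -0.52. Only 2 were higher (5.71%, against 7.78% of all genes). Slc5a1, the sodium-glucose cotransporter, went from 929.6 and 937 to 448 and 459.7 CPM (2.06-fold lower, adjusted p = 1.48e-05), below the 580.3 and 559.9 CPM of WT. The fructose transporter Slc2a5 fell 2.71-fold (184 and 181 to 65.8 and 69 CPM) and the glucose transporter Slc2a2 2.3-fold. Slc11a2, the apical iron importer, had 452 and 449 CPM untreated and 238 and 223 CPM treated, both below WT (674 and 667 CPM). The sulfate transporter Slc13a1 fell 2.59-fold and the neutral amino acid transporter Slc6a19 2.14-fold. Of the 2 called higher, the magnesium channel Trpm6 had 13.9 and 13.6 CPM untreated and 26.7 and 28 CPM treated, and was lost without Smad4 KO+TGFb replicate 2 (adjusted p = 0.0521). The other, the amino acid transporter Slc7a7 (log2 fold change 0.28), was lost when any 1 library except Smad4 KO replicate 2 was left out (adjusted p = 0.0535 to 0.154).

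Transcription factors of intestinal identity were called in both directions. Of 29 tested, 5 rose and 9 fell, with a median of -0.26 (3 rose without Smad4 KO replicate 2 or Smad4 KO+TGFb replicate 1, and 5 fell without the latter). Cdx2 and Hnf4a, which specify intestinal epithelium and drive enterocyte genes, had log2 fold changes of -0.02 ± 0.046 SE and -0.03 ± 0.021 SE and did not pass (adjusted p = 0.872 and 0.353). Hnf4g, the close relative of Hnf4a, went from 215 and 227 to 117 and 113 CPM (log2 fold change -0.94 ± 0.053 SE, adjusted p = 0.000136). The vitamin D receptor Vdr fell 1.87-fold and Nr5a2 1.82-fold, and Nr1i3, with 74.9% of its exons overlapping Tomm40l on the opposite strand, 1.86-fold. Gata5 rose from 65.2 and 57.3 to 102 and 104 CPM and Pparg from 38.5 and 37.2 to 55.5 and 57 CPM. Markers of the villus tip were split, with 6 higher and 6 lower of 15, whereas of 13 from the villus base 7 were lower and 2 higher (1 without any 1 of the replicates other than Smad4 KO replicate 2). Among the tip genes Enpp3 rose from 12 and 13.6 to 29.1 and 23.7 CPM and Apoc3 fell from 38.2 and 32.4 to 18.1 and 18.7 CPM. Among the base genes Plac8 rose from 518 and 516 to 712 and 715 CPM and Nlrp6, an inflammasome sensor of epithelium, fell from 428 and 438 to 245 and 238 CPM.

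Many stem cell markers of the crypt base fell. Of 23 tested, 12 were lower (52.2%, against 8.48% of all genes) and 2 higher, with a median of -0.27. Lgr5, the R-spondin receptor that marks these cells (chromosome 10, 115450311 to 115587780 on the minus strand), had 257 and 252 CPM in the untreated and 134 and 139 CPM in the treated libraries (1.87-fold lower, log2 fold change -0.90 ± 0.038 SE, adjusted p = 4.74e-05), and 516 and 523 CPM in WT. Olfm4, a secreted glycoprotein of the crypt base, went from 2091 and 2101 to 1107 and 1113 CPM, with 3975 and 3989.6 CPM in WT. The order from highest to lowest was WT, untreated and treated Smad4 KO for both genes, with no overlap. Smoc2 fell 1.9-fold, Rgmb 1.94-fold and Aqp4 4.4-fold (44.4 and 44.6 to 9.72 and 10.5 CPM). Those that rose were Prom1 (1.33-fold) and Ephb2 (1.24-fold). Ascl2, the master factor of the stem cell program, was not called (23.8 and 16.9 CPM untreated and 27.5 and 23.6 CPM treated, log2 fold change 0.33 ± 0.17 SE, adjusted p = 0.262). Wnt targets, which share members with this list, had 3 higher and 3 lower of 20 (15% each way, against 7.78% and 8.48% of all genes), with a median of 0.26. Axin2, the feedback inhibitor, fell 1.45-fold, while Nkd1, another feedback inhibitor, rose 3.58-fold (2.7 and 2.85 to 9.88 and 10 CPM). Ccnd1, cyclin D1, went from 203 and 204 to 379 and 364 CPM, and 23.4% of its exons overlap LTO1 on the opposite strand. Of 14 Notch pathway genes 3 were higher (21.4%, against 7.78% of all genes). The call of Notch2 was lost without Smad4 KO replicate 1, that of Jag2 without Smad4 KO replicate 2, and both without Smad4 KO+TGFb replicate 2. Another 2 Notch pathway genes were lower (14.3%, against 8.48%), the ligand Dll1 and the secretory fate factor Atoh1. The fall of Dll1 was lost when any 1 of the 4 Smad4 KO libraries was left out (adjusted p = 0.0707 to 0.11), and that of Atoh1 when any 1 library except Smad4 KO replicate 1 was (0.051 to 0.124).

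Of 23 goblet cell markers tested, 17 were lower (73.9%) and 0 higher (also 0 at an unadjusted p under 0.05 and 0 by DESeq2), with a median of -0.76, and their summed level went from 4271 and 4175 to 2259 and 2271 CPM. Muc2, the gel-forming mucin, had 221 and 225 CPM in the untreated and 92.2 and 103 CPM in the treated libraries (2.28-fold lower, adjusted p = 0.000137). The mucus proteins Fcgbp (2461 and 2346 to 1200.4 and 1203 CPM), Zg16 (93 and 90.9 to 27.4 and 28.7 CPM) and Clca1 (139 and 136 to 70 and 70.6 CPM) fell with it, and so did the trefoil factor Tff3 (1.6-fold) and Spink4 (1.71-fold). Spdef, a goblet cell transcription factor, had 10.2 and 15.1 CPM untreated and 6.92 and 8.23 CPM treated and did not pass (adjusted p = 0.0654, and 0.0247 without Smad4 KO replicate 1). Of 24 Paneth cell markers 9 fell (37.5%, against 8.48% of all genes) and 3 rose (12.5%, against 7.78%), with a median of -0.13. Their summed levels were 4543 and 4706 CPM untreated and 4499.8 and 4368 CPM treated. Only 4, 5 and 4 fell without Smad4 KO replicate 1, Smad4 KO+TGFb replicate 1 and Smad4 KO+TGFb replicate 2, and 1 rose in each of these. Lyz1, the Paneth lysozyme, had a log2 fold change of -0.03 ± 0.023 SE (adjusted p = 0.429). The α-defensin Defa20 fell 1.48-fold, with the caution that near-identical copies make single defensins uncertain. Mmp7, the protease that activates defensins, rose from 101 and 112 to 190.1 and 203 CPM (11.5% of its exons overlap AV064505 on the opposite strand).

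Of 29 enteroendocrine markers, edgeR's quasi-likelihood test called 0 in either direction, against 3 higher and 5 lower at an unadjusted p under 0.05 and 1 each by DESeq2, with a median of -0.09. Chgb, a protein of hormone granules, had 215 and 224 CPM untreated and 213 and 202 CPM treated, and the hormone gene Gip 29.9 and 31.6 CPM untreated and 32.3 and 28.8 CPM treated. Of 15 tuft cell markers 1 was called higher (6.67%, against 7.78% of all genes), Il17rb (3.0 and 2.7 to 5.85 and 4.7 CPM, adjusted p = 0.0418). That call was lost when any 1 of the 6 libraries was left out (adjusted p = 0.0635 to 0.186). Of 18 antimicrobial defence genes 7 were lower (38.9%, against 8.48% of all genes) and 2 higher (11.1%, against 7.78%), with a median of -0.16. The regenerating lectin Reg1 went from 423 and 391 to 136 and 140.0 CPM (2.95-fold lower, adjusted p = 2.44e-05), Reg3a fell 2.0-fold and Reg3g 1.62-fold. Pigr, which carries immunoglobulin A across the epithelium, fell from 2457 and 2403 to 1316 and 1291 CPM, against 3221 and 3228 CPM in WT. The 2 called higher were Duox2 (log2 fold change 0.57), lost without Smad4 KO replicate 2 (adjusted p = 0.051), and Cd14 (0.52), lost without any 1 of the 4 Smad4 KO libraries (0.0655 to 0.0832).

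**Figure D3:**
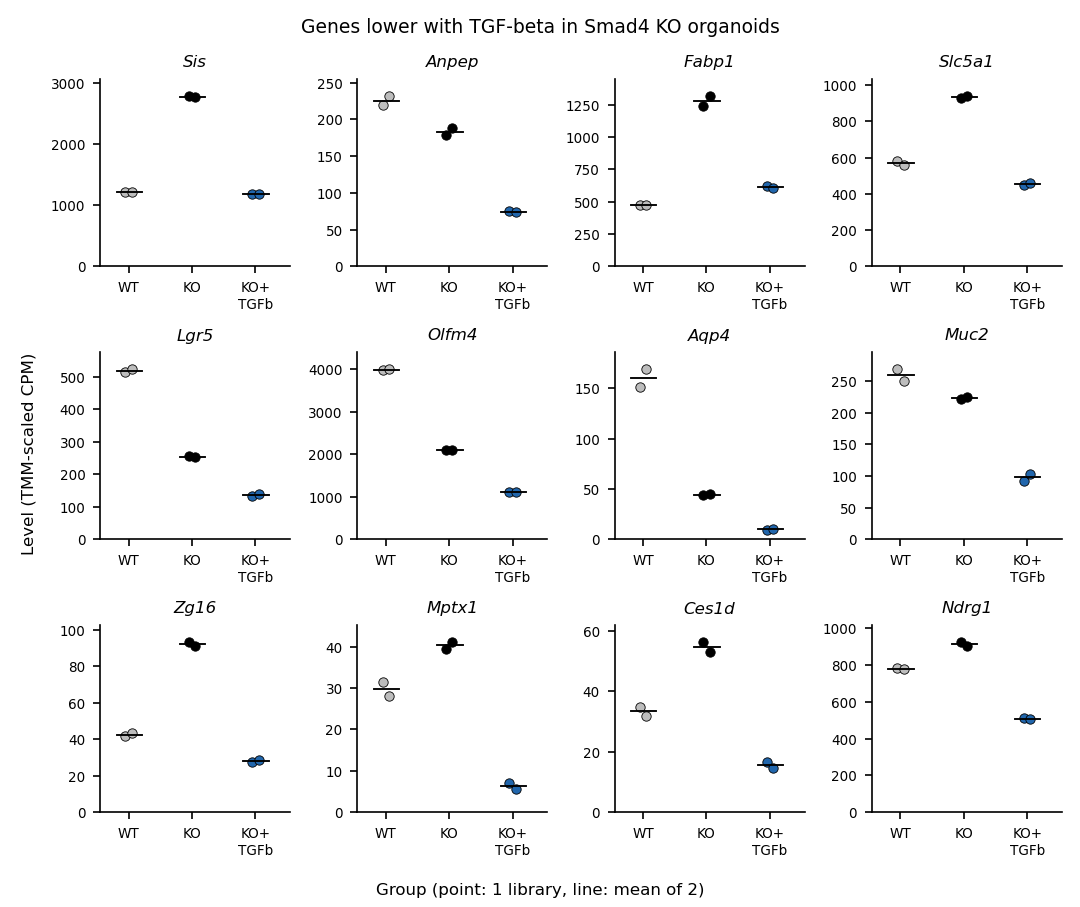
TMM-scaled CPM in each library (points) and group means (lines) of 12 genes that fell, on linear axes from 0. Both treated libraries lie below both untreated Smad4 KO libraries in every panel, and WT is the highest group for Lgr5, Olfm4, Aqp4, Muc2 and Anpep but not for Sis, Fabp1, Slc5a1, Zg16, Mptx1, Ces1d and Ndrg1.

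Genes of drug and retinoid metabolism fell almost throughout the list. Of 41 tested, 35 fell and 2 rose (85.4% lower; median -0.72). Adh1, an alcohol dehydrogenase that also oxidises retinol, went from 1605 and 1590.1 to 792 and 793 CPM (log2 fold change -1.01 ± 0.021 SE, adjusted p = 3.77e-06). Carboxylesterases, which split esters of drugs and lipids, fell 2.12-fold (Ces2e), 3.48-fold (Ces1d) and 2.98-fold (Ces1f). The glutathione transferase Gstm3 went from 497 and 451 to 161 and 171 CPM, and the cytochromes P450 Cyp3a11 and Cyp4f14 fell 1.89-fold and 1.98-fold. Members of these families resemble each other, so reads may be divided among them. Gsta4, a transferase for lipid aldehydes, rose from 512 and 521 to 846 and 819 CPM (adjusted p = 6.29e-05). Cyp27a1 (log2 fold change 1.10) was called higher as well and lost without Smad4 KO replicate 1 (adjusted p = 0.06), Smad4 KO+TGFb replicate 1 (0.107) and Smad4 KO+TGFb replicate 2 (0.0754).

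Many genes of energy and lipid metabolism fell too. In the list of glycolytic and hypoxia-induced genes, 19 of 28 were lower (67.9%) and 0 higher (also 0 at an unadjusted p under 0.05 and 0 by DESeq2), with a median of -0.38. Pgk1, phosphoglycerate kinase, went from 1409.8 and 1379 to 974 and 963 CPM (log2 fold change -0.53 ± 0.019 SE, adjusted p = 3.04e-05), and Ndrg1, a gene raised by hypoxia, from 922 and 904 to 512 and 505 CPM. Pdk1, which closes the entry of pyruvate into mitochondria, fell 1.63-fold and Bnip3 1.86-fold, with 22.3% of the Bnip3 exons overlapping Gm45507 on the opposite strand. Pkm did not pass (2599 and 2567 CPM untreated and 2516 and 2623 CPM treated). Of 22 fatty acid oxidation genes 10 were lower (6 without Smad4 KO+TGFb replicate 1 or 2) and 2 higher. Hadh, a dehydrogenase of that pathway, fell 1.62-fold, while Vnn1, a pantetheinase, rose 1.69-fold. Of 22 cholesterol genes 11 fell and 1 rose (0 when any 1 of the 6 libraries was left out), with Insig1, a brake on sterol synthesis, at 632 and 618 CPM untreated and 396 and 411 CPM treated. Of 21 genes of the unfolded protein and amino acid stress responses 9 were lower (4 without Smad4 KO+TGFb replicate 1 and 5 without any 1 of the other Smad4 KO libraries), among them Atf5 (1.98-fold), Trib3 (1.89-fold) and Xbp1 (1.35-fold).

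All 13 mitochondrially encoded genes had negative log2 fold changes of similar and small size, from -0.36 to -0.17, and 12 were called lower. mt-Co1, a subunit of cytochrome oxidase, had 17948 and 17947 CPM in the untreated and 14315 and 14315 CPM in the treated libraries (adjusted p = 1.45e-06), and mt-Nd1 5396 and 5548 CPM untreated and 4326 and 4207 CPM treated. The 1 not called was mt-Atp8 (adjusted p = 0.136, and 0.0291 and 0.0326 without WT replicates 1 and 2). The part of RNA quality in this difference was not tested.

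Of 32 genes of replication and mitosis tested, 2 were higher (6.25%, against 7.78% of all genes higher and 8.48% lower) and 0 lower (5 at an unadjusted p under 0.05 and 3 by DESeq2), with a median of -0.02 and a range of log2 fold changes from -0.20 to 0.42. Mki67, the marker of cycling cells, had 423 and 410.4 CPM untreated and 389 and 386 CPM treated (adjusted p = 0.0743), and Pcna, the replication clamp, 256 and 263 CPM untreated and 247 and 257 CPM treated (adjusted p = 0.585). The mitotic activator Cdc20 (log2 fold change 0.34) was lost without Smad4 KO replicate 2 (adjusted p = 0.0607) or either treated replicate (0.0645 and 0.0615). Cdc6 (0.42) was lost without any 1 of the 6 libraries (adjusted p = 0.0571 to 0.191). Of 13 G1 cyclins, CDK inhibitors and related genes 5 were called higher and 2 lower, and of these only cyclins D1 and D2, given above, kept their call without any 1 library. Cdkn2a (log2 fold change 1.16) was lost without Smad4 KO replicates 1 and 2 (0.055 and 0.0655) and Smad4 KO+TGFb replicate 2 (0.0916), and Cdkn1b (0.44) without Smad4 KO replicate 2 and Smad4 KO+TGFb replicate 1 (0.071 and 0.073). Cdkn1a, p21, had 145 and 146 CPM untreated and 147 and 153 CPM treated (adjusted p = 0.687). Of 19 p53 targets 6 rose (3 without Smad4 KO replicate 2, 2 without Smad4 KO+TGFb replicate 2) and 1 fell, with Perp, a desmosomal p53 target, 1.39-fold higher and Sesn1 1.59-fold lower. Of 19 interferon and MHC class II genes 1 was called higher (5.26%, against 7.78% of all genes), Ifit2 (2.34 and 2.28 to 8.14 and 9.16 CPM, adjusted p = 0.00381).

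Markers of cells other than intestinal epithelium were looked at in the same way. Of 13 fibroblast and muscle markers 9 were at 0 in all 4 Smad4 KO libraries, among them Col1a2, Col3a1, Dcn and Myh11, and the list summed to 0.713 and 0.842 CPM untreated and 0.416 and 0.57 CPM treated. Pdgfrb (0.713 and 0.743 CPM untreated and 0.208 and 0.0912 CPM treated) and Col1a1 (0 untreated, 0.0925 and 0.251 CPM treated) could be tested. Neither was called in the main edgeR fit (1 lower at an unadjusted p under 0.05 and by DESeq2). Pdgfrb was called lower in edgeR with no filter on low counts (adjusted p = 0.0497), a filter of 1 CPM in 2 libraries (0.0377) and values divided by 4 (0.047). The 12 leukocyte markers summed to 6.24 and 5.62 CPM untreated and 6.02 and 6.38 CPM treated, 3 were at 0 (Cd8a, Cd79a and Tyrobp), and 0 of the 6 tested passed in edgeR, in DESeq2 or at an unadjusted p under 0.05. Endothelial and neural markers summed to 3.77 and 4.01 CPM untreated and 5.04 and 2.9 CPM treated, with 0 of 5 tested called by edgeR, DESeq2 or an unadjusted p under 0.05. The part of such cells in the values of Fn1 and the matrix genes was not tested. Of 18 markers of stratified and gastric epithelium, 11 were tested and 5 rose, and their sum went from 548 and 544 to 1099 and 1122 CPM. Besides Krt4, Krt14 and Anxa10 these were the cornified envelope genes Sprr1a (82.1 and 74.4 to 179 and 190.1 CPM) and Sprr2a3 (337 and 333 to 635 and 643 CPM), the latter from a family of near-identical genes. Krt5, Sox2 and Muc5ac, which define basal and gastric cells, were at 0 in all 4 libraries.

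**Figure D4:**
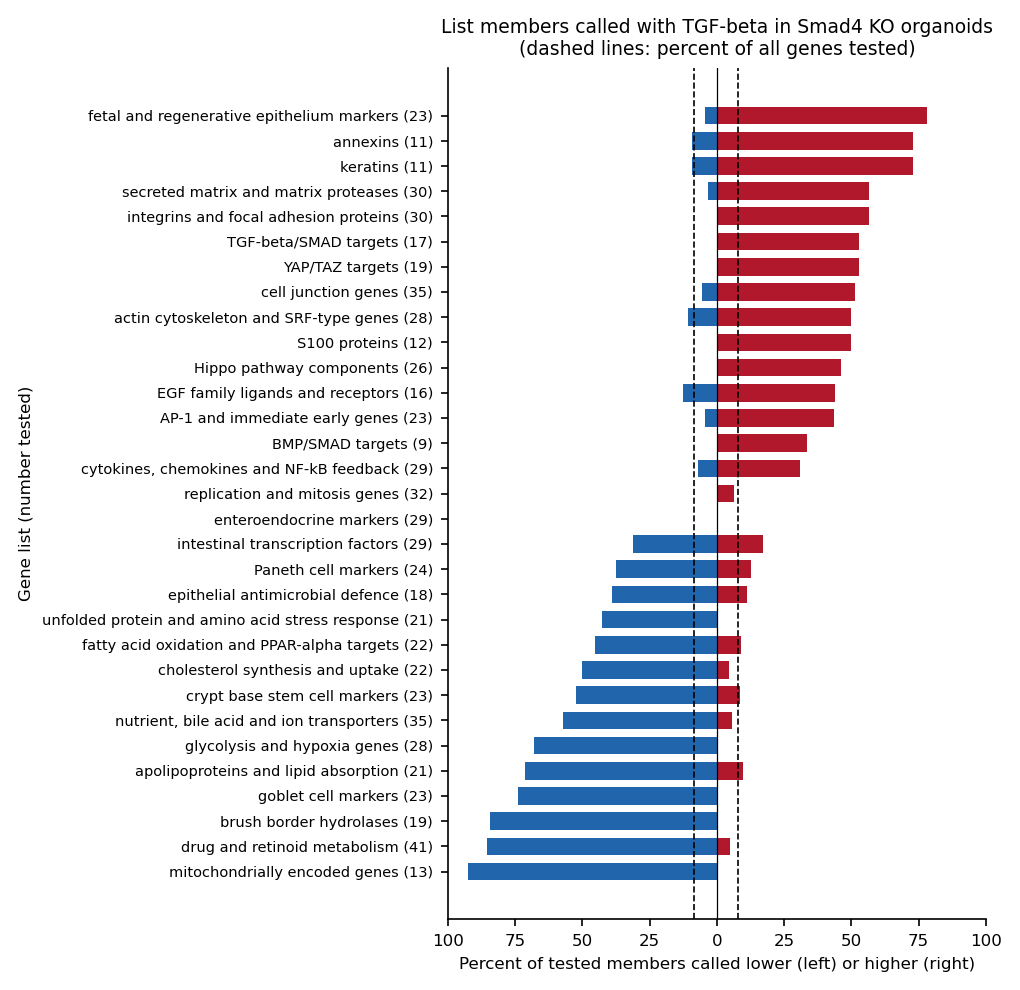
Percent of the tested members of each gene list called higher (red, right) or lower (blue, left) with TGF-β, with the number tested in brackets and dashed lines at the share of all genes called, 7.78% higher and 8.48% lower. Regenerative, annexin, keratin and matrix lists extend to the right, with 78.3% of the regenerative markers called higher. Enterocyte, goblet and metabolic lists extend to the left. The lists were chosen with earlier results of these data known, and some share members.

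**Figure D5:**
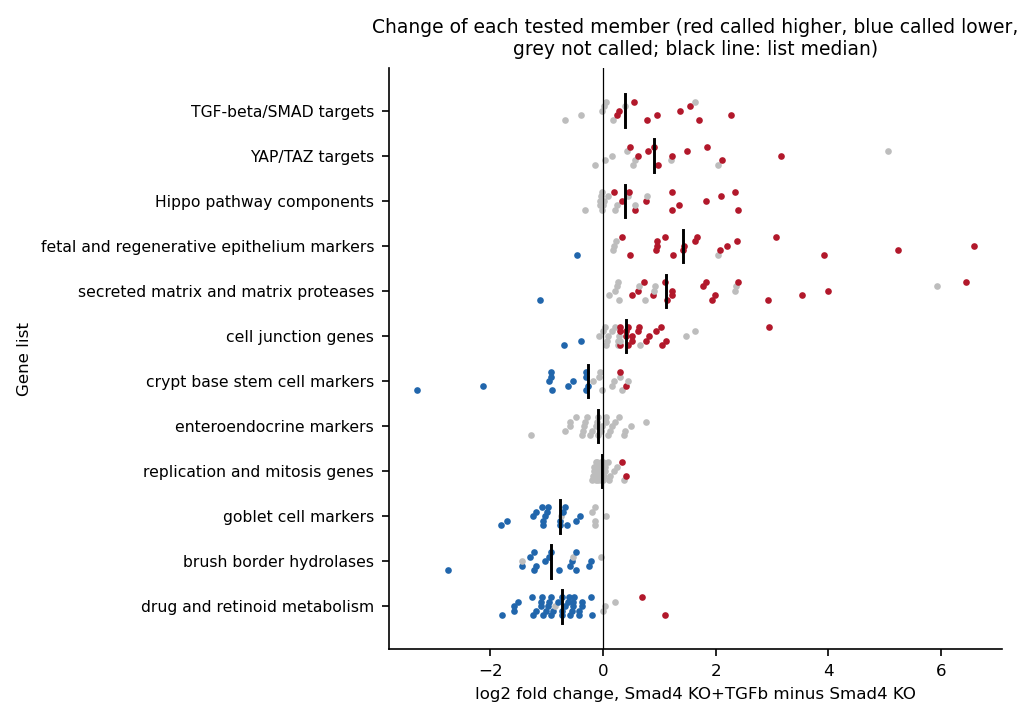
Log2 fold change of every tested member of 12 lists (points; red called higher, blue called lower, grey not called) with the list median (black line). Regenerative markers centre on 1.41 and brush border hydrolases on -0.92, while enteroendocrine markers and replication genes centre on -0.09 and -0.02.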

How the data were processed

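Bulk RNA-seq of 6 libraries was used, with 2 per group and groups taken from the titles. The authors deposited estimated counts per gene as whole numbers. The submitters' processing notes list StringTie 1.3.3b, HISAT2 2.1.0, SAMtools 1.9 and FastQC 0.11.9, with the build GRCm38 (mm10). Annotation release, strand setting and read length are not given in these sources, so overlapping genes share an uncertain part of their values. Multiples of 4 made up 42.3% of values between 1 and 24, where an even spread gives 25%, and a fragment was therefore taken as about 4 units. Floors of 3 fragments (12 units over a group) rest on this and cover counting error only.

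Of 31227 genes, 97 had no symbol and 11742 were at 0 in all libraries. edgeR 4.0.16 (R 4.3.3) with filterByExpr left 15503, with TMM scaling and a quasi-likelihood test over all 6 libraries, group as the only term and 3 residual degrees of freedom. Every adjusted p is Benjamini-Hochberg over all genes tested. Calls use 0.05. The test was run on simulated data made from these genes first. Alternatives were DESeq2 1.42.0, its size factors in edgeR, other filters on low values, the 4 Smad4 KO libraries alone, the replicate number as a block, values divided by 4 and each library left out.

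The comparison and the gene lists were chosen with earlier results of these data known. Lists are described by counts and medians beside those of all genes, with no set test. The naming rule took Smad4, the 12 highest and 12 lowest fold changes among called genes whose groups did not overlap, with a mean of 5 CPM or more in 1 group and a symbol not of clone type, and from each list up to 5 called members with the smallest adjusted p, all members of a direction with 5 or fewer calls, and, where none was called, the member with the highest mean. Markers of other cell types above 0 were included. Some genes it takes are not reported here, and genes named outside it, mostly uncalled ones and further members of a family, were chosen after their values were seen. Positions and overlaps come from GENCODE vM21 on GRCm38. Promoters come from RefSeq (GRCm38.p6) and matched 75.6% of the genes tested, so motif shares by call are values only.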

Additional observations from a re-analysis of the deposited data

How the results depend on the processing

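Leaving out 1 library moved the number of genes higher to between 656 and 1108, the number lower to between 848 and 1196, and those over 2-fold higher to between 258 and 390. The fewest were called without a treated replicate, where 1504 and 1534 genes passed, of which 1376 and 1415 were also among the 2521. DESeq2 called 1720 higher and 1748 lower. The share higher among called genes was 47.8%, and between 42.9 and 50.0% in the alternatives. The replicate block gave 1018 genes higher and 1135 lower, with 349 and 215 over 2-fold. Same-numbered libraries did not deviate together (r = 0.031 between Smad4 KO and Smad4 KO+TGFb, across genes), so the numbers were not taken to pair them. Of 962 list counts in the alternatives 846 stayed within 1.5 times their value, and 96 of the 116 that did not came from leaving out a library. Of 465 called genes on the lists or taken by the naming rule, 329 kept their call in every alternative and none changed direction. Among genes given as not called, Emp1 passed with the replicate block (adjusted p = 0.0374). In edgeR with the 4 Smad4 KO libraries alone, Inhba and Tead1 passed (0.0316 and 0.0173). Skil and Tgfb1 passed with no filter on low counts (0.0457 and 0.0474) and with values divided by 4 (0.0444 and 0.0492). Tgfb1 also passed with a filter of 1 CPM in 2 libraries (0.0494). With DESeq2 those that passed were Skil (0.0111), Inhba (0.00956), Tgfb1 (0.0147), Tead1 (0.0349), Jun (0.0442), Spdef (0.0235), Mki67 (0.0445) and Pdgfrb (0.0139). Smad4 stayed uncalled in all of them, with adjusted p from 0.0658 to 0.421. The causes were not tested. With 2 libraries a group, changes well under 2-fold may often have gone undetected.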

Other observations

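Further gene lists were put together after values had been seen, so their counts describe the genes picked and support nothing. Over all genes 7.78% were called higher and 8.48% lower. Of 7 genes that take up and break down fructose 7 were called lower (median -0.76), with Slc2a5 as the transporter given above. Ketohexokinase, Khk, had 228 and 241 CPM in the untreated and 121 and 121 CPM in the treated libraries (log2 fold change -0.95 ± 0.049 SE, adjusted p = 9.76e-05). Of 8 genes of urea and ornithine synthesis 5 were lower and 3 not called (median -0.89). Cps1, the mitochondrial carbamoyl phosphate synthetase, had 1431 and 1403 CPM untreated and 652 and 681 CPM treated, against 3492 and 3432 CPM in WT, and Otc went from 83.2 and 83.6 to 27.6 and 30.3 CPM (edgeR adjusted p = 6.29e-05). The cytosolic enzymes had log2 fold changes of 0.51 ± 0.20 SE for Ass1 and 0.09 ± 0.086 SE for Asl, neither called (adjusted p = 0.15 and 0.578). Of 14 metal-handling genes 8 were lower and 2 higher (median -0.59). The metal-binding metallothionein Mt1 fell from 1314 and 1263 to 540.1 and 555 CPM and the zinc transporters Slc39a8 and Slc39a5 fell 2.82-fold and 2.26-fold, whereas the zinc importer Slc39a4 rose 1.55-fold.

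Of 6 caveolins and cavins 3 were called higher and 3 not called. Cavin1, a coat protein of caveolae, went from 20.8 and 18.3 to 124 and 127 CPM (log2 fold change 2.68 ± 0.12 SE, adjusted p = 6.17e-05), next to Cav2. Of 9 calpain genes on the list 4 were called higher and 5 not called, with a median of 0.03. Capn2 and Capn1 rose 3.74-fold and 1.62-fold, and 27.1% of the Capn2 exons overlap Gm37885 on the opposite strand. Capn9, which the list left out, fell from 8.04 and 9.44 to 3.22 and 1.78 CPM (edgeR adjusted p = 0.0138). The call of Capn9 was lost without Smad4 KO replicate 2 (log2 fold change -1.69). Lor, loricrin of the cornified envelope, went from 7.66 and 9.71 to 42.5 and 39.1 CPM and Serpinb5 from 10.1 and 11.3 to 48.4 and 50.4 CPM. Cldn2 was near 0 in 1 library of each untreated group, at 379 and 0.388 CPM in WT, 0.28 and 269 CPM in untreated and 203 and 223 CPM in treated Smad4 KO libraries (log2 fold change 0.66 ± 2.3 SE, adjusted p = 0.899).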
